A study of Schmidtea mediterranea with 58 samples.

Results

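Trimethylation of lysine 4 of histone H3 (H3K4me3) was examined by chromatin immunoprecipitation and sequencing at regions of the *Schmidtea mediterranea* genome that more than 1 gene start shared. A region was taken when the starts of 2 or more different gene identifiers lay within 200 bases of it, and 1437 of the 16158 regions listed in 7 comparison tables met this rule. The listed regions are those that the authors' comparison of 2 groups of libraries had picked, so they are not a sample of all marked regions of the genome. A further 11283 listed regions had the start of 1 identifier within 200 bases, and these single-start regions are the ones set beside the shared regions below. The 1437 shared regions came from 109 of 1378 regions in the table of X1 against Xins cells, 745 of 8633, 31 of 554 and 9 of 106 in the *set1*(RNAi) tables of whole worms, X1 and Xins, and 510 of 5169 and 33 of 306 in the *mll*(RNAi) tables of whole worms and X1. The *mll*(RNAi) table of Xins cells listed 12 regions and none of them was shared.

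X1 and Xins are populations of sorted planarian cells. In the planarian field X1 is the gate that holds dividing cells, mostly stem cells called neoblasts, and Xins is the gate of differentiated cells that survive irradiation. The groups were *set1*(RNAi) after 6 days and *mll*(RNAi) after 9 days, each in whole worms (WW), X1 and Xins and each with *unc*(RNAi) controls of its own, and untreated X1 with untreated Xins cells. Every group had 2 H3K4me3 libraries, and the labels do not say whether these came from separate animals. The values deposited for a region were a normalized read count of each library and the enrichment of each group over its input. In whole worms and in a sorted population, fewer marked cells and less mark per cell cannot be told apart.

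H3K4me3 is the mark of active promoters, and it is laid down by methyltransferase complexes of the SET1/COMPASS and MLL families, after which the 2 genes are named. In animals the mark flanks the start of a transcribed gene, and when gene starts lie close together, whether in opposite or in the same orientation, a single block of the mark can cover them. The tables do not state the strand of a gene, so divergent and tandem starts could not be separated. They also pair no identifier with a gene name, and regions are therefore given by scaffold, position and identifier, with scaffold names as in the files (v31). For the same reason the labelled cell types were not checked against marker genes. No genome was used here, and no sequence is shown.

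The shared regions formed 785 separate loci on 718 scaffolds, counting overlapping ones once, and carried 1646 gene identifiers, of which 19 occurred at more than 1 locus. Most had exactly 2 starts. The *set1* whole-worm list had 687 shared regions with 2 starts, 47 with 3 and 11 with 4. In the *mll* whole-worm list 469 had 2, 30 had 3, 10 had 4 and 1 had 10. A member of the second whole-worm list was often a member of the first. The *set1* list held 605 loci shared by several starts and the *mll* list 480, and 375 were common to both, which was 62.0% of the *set1* loci and 78.1% of the *mll* loci. A single comparison listed 374 of the loci, 2 listed 350, 3 listed 52 and 4 listed 9. The list of X1 against Xins was cut at scaffold 1565, so loci on later scaffolds could not be counted in it. In the RNAi lists, between 31.1% and 48.5% of the regions lay on scaffolds up to that one. For loci on later scaffolds the number of comparisons is therefore a lower limit.

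The distance between the starts could be worked out for part of the regions. The files give the distance from the edge of a region to a start, and the side was not used. Of 9137 starts, 5812 lay outside of at least 1 listed region. A single position was possible for 4863 of these and 949 stayed ambiguous, with no conflict between regions. All starts were located in 385 of the 745 shared regions of the *set1* whole-worm table, where the outermost starts lay a median of 359 bases apart (quartiles 134 and 952), and in 269 of the 510 of the *mll* table, where the median was 358 (184 and 948). Overlapping regions can repeat the same starts. With each set of starts counted once over all tables, 384 sets had a median spacing of 523.5 bases (quartiles 217.75 and 1156.25). The starts lay within 10 bases in 30 of these sets and over 1000 bases apart in 124. Of the 385 regions from *set1*(RNAi) whole worms, 43 had all starts within 10 bases, and 85 within 100 bases. At the other end 88 of them had starts more than 1000 bases apart. The largest spacing was 3089 bases. It belonged to a region from 25201 to 28100 on scaffold v31.001069 with 6 identifiers, 3 of which (SMED30017928, SMED30024126 and SMED30030350) started at the same base, 25076. The files do not say whether identifiers that start at the same base are models of a single gene. This region was higher in X1, with 178.3 and 194.5 in X1 against 84.2 and 79.8 in Xins. Among the close pairs, the starts of SMED30006029 and SMED30031655 on scaffold v31.000135 lay 12 bases apart, under a region from 42601 to 44300 that had 213.8 and 191.6 in X1 against 136.8 and 111.5 in Xins, the highest mean count of a shared region in that comparison.

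Shared regions were longer than single-start regions in 4 of the 6 tables, but by little. The median length was 1900 bases against 1700 in X1 over Xins, 1500 against 1400 in *set1*(RNAi) X1, 1400 against 1100 in *set1*(RNAi) Xins and 1500 against 1400 in *mll*(RNAi) whole worms. It was 1300 for both kinds in *set1*(RNAi) whole worms and 1400 for both in *mll*(RNAi) X1. The interquartile range of the shared regions ran from 1100 to 1600 bases in *set1*(RNAi) whole worms and from 1200 to 1700 in *mll*(RNAi) whole worms, against 1100 to 1500 and 1100 to 1600 for single-start regions. Since distance was counted from a region's edge, a longer region meets the rule more easily, and the share of shared regions rose with length in each table. The *set1* whole-worm table had 6.65% of the regions up to 1200 bases shared, 9.86% of those over 1200 and up to 2000 bases, and 43.8% of the 112 longer ones. In *mll*(RNAi) whole worms these shares were 6.04%, 12.1% and 24.8%.

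**Figure D1:**
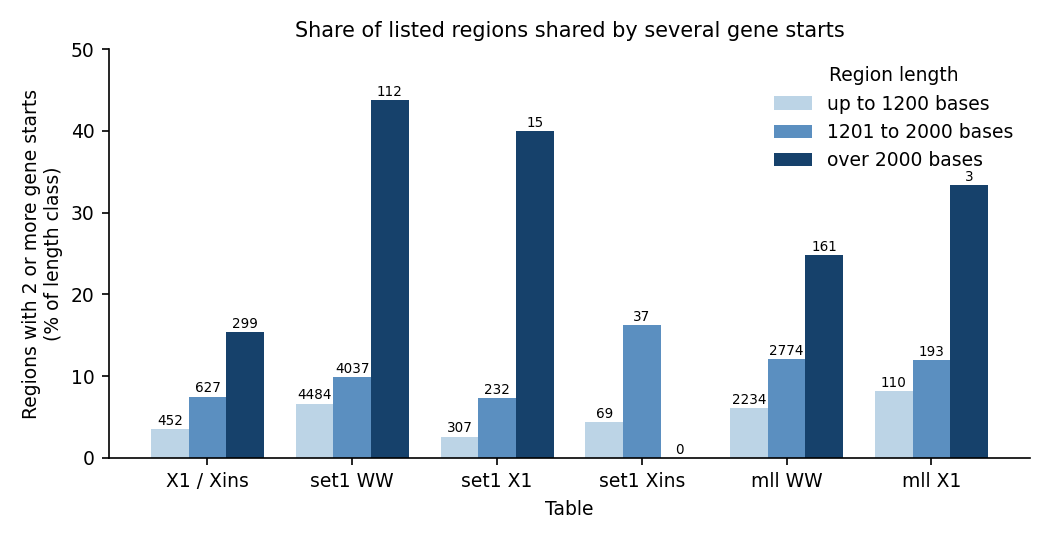
Share of listed regions with 2 or more gene starts within 200 bases (vertical axis, percent of the length class) in each table with shared regions, by region length; the number over a bar is the number of regions in the class. In each table the bars rise with length, from 6.65% to 43.8% in set1 whole worms, and the set1 Xins table had no region over 2000 bases.

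The amount of mark at shared regions was close to that at single-start regions in whole worms. Enrichment over input had a median of 13.6 in *set1*(RNAi) and 11.8 in its controls at shared regions, and of 13.6 and 12.0 at single-start regions. For *mll* it was 10.3 in *mll*(RNAi) and 11.1 in its controls at shared regions, and 10.6 and 11.2 at single-start regions. In the untreated comparison shared regions had a median enrichment of 9.80 in X1 and 8.84 in Xins, and single-start regions 12.3 in X1 and 7.50 in Xins. The highest normalized count of a shared region was found in the 3600 bases that end at 4800 on scaffold v31.002266 in *set1* whole worms. Its starts, of SMED30000621 and SMED30004088, lay 153 bases apart. It had 3793.2 and 3717.5 in *set1*(RNAi) and 3918.0 and 4024.5 in *unc*(RNAi), a log2 change of -0.08 (SE 0.04, limma adjusted p = 0.0745), so that this abundant region did not pass the test although the groups did not overlap. It passed without the first-listed *set1*(RNAi) library (-0.10, limma adjusted p = 0.0230).

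X1 and Xins cells differed at shared regions in both directions and by large factors. Changes were fitted with limma on log2(normalized count + 1) over all regions of a table, and a region was called when its Benjamini-Hochberg adjusted p was below 0.05. Since the authors had picked the regions on the same libraries, a call is no independent evidence of a change and speaks only to the scatter of the replicates. Of the 109 shared regions 56 were called lower and 46 higher in X1, while 32.1% of all listed regions were called lower and 56.2% higher. Of the 566 listed regions without a gene start 88 were lower and 421 higher, and among the 703 single-start regions 299 were lower and 307 higher. In either direction 93.6% of the shared and 88.3% of all listed regions were called. The median log2 change was -0.73 at shared regions (quartiles -1.76 and 1.65) and -0.52 at single-start regions (-1.28 and 1.64). The sign of the median depended on the rule, being 0.68 with starts counted up to 500 bases and 1.17 at the 7 regions with 3 or more identifiers, and centred libraries gave -1.38, with 62 shared regions called lower and 31 higher. The longer shared regions leaned to X1 and the shorter to Xins. Of the 46 over 2000 bases 26 were called higher and 20 lower in X1, and of the 47 over 1200 and up to 2000 bases 16 were higher and 26 lower. Single-start regions had the same lean, with 130 higher and 73 lower of 204 over 2000 bases.

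The shared regions that leaned most to X1 were nearly empty in Xins. The region from 82701 to 85300 on scaffold v31.000765 (SMED30002927 and SMED30031667) had 54.8 and 53.1 in X1 against 0.00 and 0.86 in Xins. The region from 73501 to 76600 on scaffold v31.000783 (SMED30030234 and SMED30031235) reached 195.5 and 192.2 in X1 against 18.2 and 4.29 in Xins. The third, from 37101 to 39600 on scaffold v31.001255 (SMED30012512 and SMED30035323), stood at 97.5 and 117.6 in X1 against 0.00 and 10.3 in Xins. In all of them both X1 libraries stood well above both Xins libraries, whose own spread was wide. The log2 changes were 5.33 (SE 0.43), 4.27 (SE 0.65) and 5.01 (SE 1.22).

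The opposite extreme was a region of 4800 bases, the longest of the shared regions in any table, from 88701 to 93500 on scaffold v31.000477. It spanned the starts of SMED30011701 and SMED30032297 and had 2.75 and 5.51 in X1 against 100.3 and 125.2 in Xins (log2 change -4.52, SE 0.38, limma adjusted p = 0.00348). Its enrichment over input was 0.39 in X1 and 9.86 in Xins. The region from 94701 to 97100 on scaffold v31.000996 (SMED30011960 and SMED30015172) held 3.72 and 2.50 in X1 against 70.9 and 57.5 in Xins, a change of -4.00 (SE 0.34). The Xins libraries were shallow, with a median of 8 and 37 reads at shared regions against 38 and 142 in X1. Most calls of this table were lost with either X1 library left out, when the scatter came from the Xins libraries alone. The median log2 change at shared regions was then -0.71 without the first-listed and -0.76 without the second-listed. It was -0.73 with all libraries. The lost calls thus do not tell whether a change rested on a single X1 library. Among the extremes, the region on v31.000477 remained called in both cases. Those on v31.000996 and v31.000765 lost their calls only without the first-listed, and those on v31.000783 and v31.001255 in both cases.

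By normalized count, *set1*(RNAi) in whole worms changed shared regions little and in both directions. Of the 745 shared regions 179 were called lower and 105 higher, against 25.8% lower and 15.1% higher among all 8633 listed regions. The called shares were 24.0% lower and 14.1% higher for shared regions, and 21.4% and 17.3% for single-start regions, while in either direction 38.1% of the shared and 40.9% of all listed regions were called. The median log2 change was 0.01 at shared regions (quartiles -0.10 and 0.07) and 0.03 at single-start regions (-0.09 and 0.09). Enrichment over input leaned up instead, with a median log2 ratio to *unc*(RNAi) of 0.20 at shared regions (quartiles 0.06 and 0.33). At single-start regions this ratio was 0.21 (0.06 and 0.35). The direction after *set1*(RNAi) thus depended on the measure, and the directions given here are those of counts. With *mll*(RNAi) 160 of the 510 shared regions were called lower and 69 higher, against 26.3% lower and 10.9% higher in the table, and the shares were 31.4% and 13.5% for shared regions and 27.5% and 10.1% for single-start regions. In either direction 44.9% of the shared and 37.2% of all listed regions were called. The median change was -0.04 for both kinds. Within regions over 1200 and up to 2000 bases 46.0% of the shared and 45.7% of the single-start regions were called after *mll*(RNAi), and within regions up to 1200 bases 31.1% and 23.4% were. When each library was centred on its median over the table, 92 of the shared regions were called lower and 200 higher after *mll*(RNAi), so the balance of directions in that table rests on the authors' scaling. For *set1*(RNAi) whole worms centring gave 148 lower and 135 higher. Fewer shared regions were called in either table whichever library was left out. The median log2 change was then between -0.0072 and 0.0053 for *set1*(RNAi) and between -0.048 and -0.037 for *mll*(RNAi). A shared region held a median of 1148 and 830 reads in *set1*(RNAi) against 1451 and 805 in *unc*(RNAi), and of 789 and 764 in *mll*(RNAi) against 1233 and 992.

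**Figure D2:**
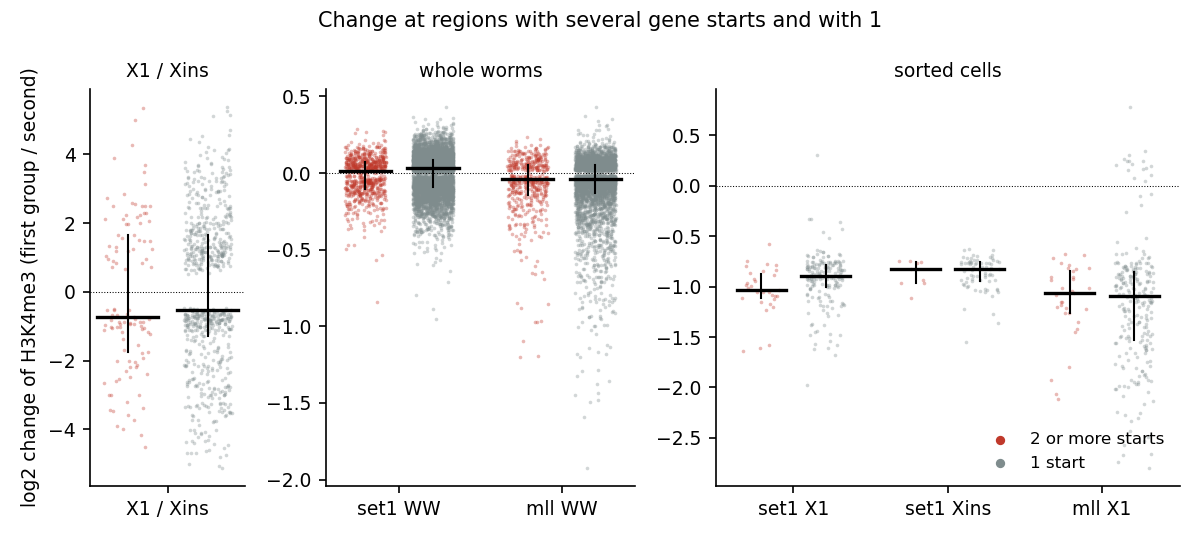
log2 change of H3K4me3 (vertical axes, each panel with its own scale) at regions with 2 or more gene starts (red, left of each pair) and with 1 start (grey): X1 over Xins, and RNAi over unc(RNAi) elsewhere. Points are regions, the horizontal bar is the median and the vertical bar spans the quartiles; in whole worms the medians were 0.01 and 0.03 for set1 and -0.04 for both kinds for mll, while all shared regions listed in RNAi tables of sorted cells lay below 0.

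The direction in whole worms went with where the centre of a region lay against its nearest start, and it did so in opposite ways for the 2 genes. Of the shared regions with all starts located, 210 in the *set1* table had their centre within 250 bases of a start. Of these 43 (20.5%) were lower in *set1*(RNAi), with a median log2 change of 0.05 (quartiles 0.02 and 0.09). Of the 72 centred over 500 and up to 750 bases away 69 (95.8%) were lower, with a median of -0.09 (-0.15 and -0.05). After *mll*(RNAi) it was the other way round, since 74 of 97 shared regions (76.3%) centred within 250 bases of a start were lower, with a median of -0.06, and 11 of 44 centred over 500 and up to 750 bases away were lower, with a median of 0.05. The calls followed the same order. Near a start 21 were called lower and 46 higher in *set1*(RNAi) and 32 lower and 6 higher in *mll*(RNAi), whereas at over 500 and up to 750 bases 29 were called lower and 0 higher in *set1*(RNAi) and 5 lower and 14 higher in *mll*(RNAi).

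The relation was not particular to shared regions. Single-start regions with a located start were lower in *set1*(RNAi) in 4.36% of 1814 within 250 bases and in 94.2% of 1065 at over 500 and up to 750 bases, and in *mll*(RNAi) in 80.4% of 673 and 25.8% of 558. At over 250 and up to 500 bases from the nearest start the kinds differed more: 80.0% of 80 shared regions and 32.5% of 425 single-start regions were lower in *set1*(RNAi). For *mll*(RNAi) these shares were 55.1% of 118 and 60.3% of 885. A start could be located only where some listed region lay outside it, so the located regions are a selected part. The gap between near and far shared regions in *set1*(RNAi), 0.15 between regions within 250 bases and all those beyond 500, kept its sign with any 1 library left out (0.15 to 0.16), and so did that of *mll*(RNAi), -0.11 (-0.12 to -0.09). Centring leaves these gaps as they are, but it moved the median of near regions in *mll*(RNAi) to 0.04 and so turned its direction.

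**Figure D3:**
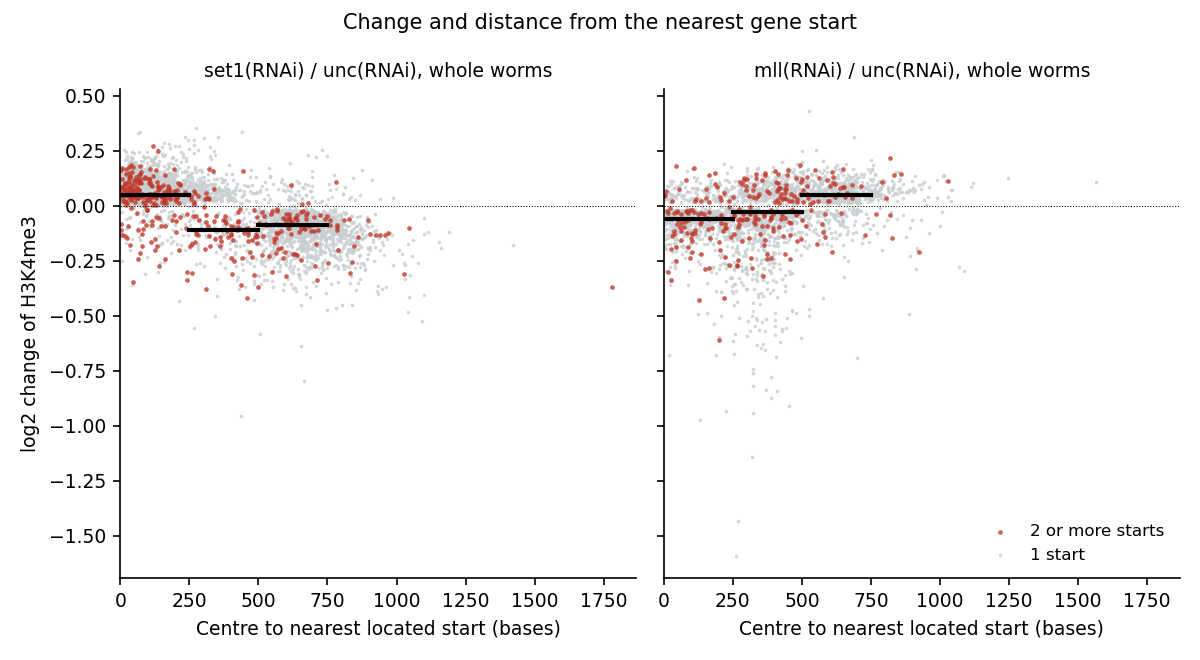
log2 change of H3K4me3 in whole worms (vertical axis) against the distance from a region's centre to its nearest located gene start in bases (horizontal axis), for regions with 2 or more starts (red) and 1 start (grey), all starts located. Black bars are medians of the red points up to 250, 500 and 750 bases: 0.05, -0.11 and -0.09 for set1, and -0.06, -0.03 and 0.05 for mll.

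Overlapping pairs within a table come from the same listed regions, so they restate this order and are no separate support for it. After *set1*(RNAi) in whole worms 142 pairs of shared regions overlapped, and in 134 of them 1 region was lower and the other higher. Nearly all overlapping pairs of any kind in that table were of opposite direction (2741 of 2780). So were 528 of 533 in *mll*(RNAi) whole worms and 6 of 6 in X1 over Xins. Opposite signs of overlapping regions are thus general to these lists and no trait of shared regions or of a locus. Whether the way regions were listed produced them was not tested. For 75 such shared pairs with all starts located the higher region had its centre nearer a start in 69, at a median of 59.5 bases, while the lower region was centred at a median of 538.5 bases. Among 27 such pairs of *mll*(RNAi) whole worms the lower region was nearer in 22, at a median of 97.5 bases, against 471.5 for the higher one. Single-start regions had the same order. Of their opposite pairs the higher region was nearer in 1022 of 1054 in *set1*(RNAi), and the lower in 161 of 188 in *mll*(RNAi). The change also differed with the spacing of the starts, though not in steady order. The spacing classes hold the same located regions as the distance classes above, and spacing was not separated from distance. In *set1*(RNAi) 81.8% of 88 shared regions with starts over 1000 bases apart were lower (34 called lower and 2 higher), against 49.3% of 73 over 500 and up to 1000 bases (24 and 9), 36.0% of 139 over 100 and up to 500 (27 and 28) and 47.1% of 85 up to 100 (20 and 11). Of all regions listed there, 25.8% were called lower and 15.1% higher. In *mll*(RNAi) these shares were 41.9% of 62 (17 and 17), 63.0% of 46 (9 and 7), 58.8% of 114 (29 and 18) and 68.1% of 47 (6 and 4), and of all listed regions 26.3% were called lower and 10.9% higher. The regions with wide spacing were longer in *set1*(RNAi) (median 1500 bases, against 1300 with starts over 100 and up to 500 bases apart), and among those over 1200 and up to 2000 bases 39 of 54 with wide spacing (72.2%) and 48 of 135 with starts up to 1000 bases apart (35.6%) were lower.

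The shared region that fell most in *set1*(RNAi) whole worms lay from 15601 to 17500 on scaffold v31.010316, over the starts of SMED30016470 and SMED30025064. It had 566.4 and 594.2 in *set1*(RNAi) and 1016.3 and 1062.3 in *unc*(RNAi) (log2 change -0.84, SE 0.05, limma adjusted p = 1.12e-63). The next, from 9101 to 11400 on scaffold v31.009045 (SMED30002250 and SMED30031960), had 887.0 and 894.8 in *set1*(RNAi) and 1308.7 and 1330.7 in *unc*(RNAi), a change of -0.57 (SE 0.04). Both were also among the 3 shared regions that fell most in *set1*(RNAi) X1 cells. There the first had 38.3 and 30.4 in *set1*(RNAi) and 104.6 and 111.8 in *unc*(RNAi) (-1.64, SE 0.18), and the second had 41.7 and 51.8 in *set1*(RNAi) and 140.6 and 141.5 in *unc*(RNAi) (-1.58, SE 0.16). In neither tissue did the libraries of the groups overlap, and neither locus was a shared region of an *mll* table. The largest rise in *set1*(RNAi) whole worms was smaller than these falls: on scaffold v31.000285 from 110401 to 111400 (SMED30008987 and SMED30023520) the counts were 576.2 and 540.6 in *set1*(RNAi) and 449.8 and 466.1 in *unc*(RNAi), a change of 0.29 (SE 0.06).

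Falls after *mll*(RNAi) in whole worms were steeper. The 3 largest were on scaffolds v31.006010 (14701 to 15800), v31.046932 (2101 to 3200) and v31.012447 (4101 to 5700). The first, with SMED30017232 and SMED30024797, had 165.7 and 171.5 in *mll*(RNAi) and 388.1 and 389.4 in *unc*(RNAi) (log2 change -1.20, SE 0.08, limma adjusted p = 6.07e-43). The second, with SMED30008939 and SMED30010841, had 134.4 and 118.6 in *mll*(RNAi) and 314.1 and 269.3 in *unc*(RNAi) (-1.20, SE 0.10). The third, with SMED30005468 and SMED30012753, had 214.0 and 223.5 in *mll*(RNAi) and 472.8 and 466.0 in *unc*(RNAi) (-1.10, SE 0.07). Each lost more than its replicates differed, and their enrichment over input was 2.36, 2.06 and 2.92 in *mll*(RNAi) and 6.67, 4.56 and 6.91 in *unc*(RNAi). The rises were small by comparison. On scaffold v31.004004 from 17401 to 19400, with the starts of SMED30000320 and SMED30032022 1698 bases apart, the counts were 1296.2 and 1221.4 in *mll*(RNAi) against 1069.1 and 1091.6 in *unc*(RNAi) (0.22, SE 0.04). The highest count of a shared region in *mll* whole worms lay from 31701 to 34700 on scaffold v31.003189, with the starts of SMED30004937 and SMED30030239 2446 bases apart. It was higher as well, at 2587.0 and 2587.8 in *mll*(RNAi) against 2293.8 and 2402.2 in *unc*(RNAi) (0.14, SE 0.03). The region with 10 identifiers, from 97901 to 98900 on scaffold v31.000340, did not pass the test, with 603.6 and 590.1 in *mll*(RNAi) and 631.8 and 616.2 in *unc*(RNAi) (-0.06, SE 0.05, limma adjusted p = 0.324; 0.04 with centred libraries).

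In sorted cells all shared regions listed in the RNAi tables were lower. All 31 in *set1*(RNAi) X1, all 9 in *set1*(RNAi) Xins and all 33 in *mll*(RNAi) X1 were called lower, against 99.8%, 100% and 92.2% of all regions listed in these tables. In *mll*(RNAi) X1 a further 6.54% of the listed regions were called higher, none of them shared, which makes 98.7% called in either direction. The median log2 change was -1.04 at shared and -0.89 at single-start regions in *set1*(RNAi) X1, -0.83 at both kinds in *set1*(RNAi) Xins, and -1.06 and -1.10 in *mll*(RNAi) X1. The depth was low, with medians of 53 and 51 reads per shared region in *set1*(RNAi) X1 against 124 and 139 in *unc*(RNAi), and of 48 and 34 in *mll*(RNAi) X1 against 170 and 118. Other deep falls in X1 were those from 18001 to 19500 on scaffold v31.002212 (SMED30011775 and SMED30023240), with 27.8 and 36.6 in *set1*(RNAi) against 90.5 and 108.7 in *unc*(RNAi) (-1.61, SE 0.19), and from 46701 to 48200 on scaffold v31.001241 (SMED30000708 and SMED30034888), with 21.5 and 15.5 in *mll*(RNAi) against 88.3 and 71.6 (-2.06, SE 0.23). In Xins the region from 36001 to 37400 on scaffold v31.004354 (SMED30018964 and SMED30026314, 325 bases apart) had 45.2 and 35.9 in *set1*(RNAi) against 78.6 and 81.1 in *unc*(RNAi) (-0.97, SE 0.21). In these the RNAi and control libraries were well apart. Since nearly all listed regions fell, centring the libraries removed most of these calls: 5, 0 and 7 shared regions were then called. In *set1*(RNAi) Xins most calls were also lost with either control library left out, when the scatter came from the *set1*(RNAi) libraries alone. The median log2 change was then -0.83 without the first-listed and -0.94 without the second-listed.

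The deepest fall of a shared region in *mll*(RNAi) X1 cells lay from 43401 to 45100 on scaffold v31.003246 (SMED30000078 and SMED30019586), with 24.0 and 22.8 in *mll*(RNAi) and 119.4 and 92.0 in *unc*(RNAi) (log2 change -2.12, SE 0.18, limma adjusted p = 5.91e-06). The locus was shared in 4 tables. In *mll*(RNAi) whole worms it had 693.0 and 777.8 against 912.6 and 950.2 in *unc*(RNAi) (-0.34, SE 0.04). In *set1*(RNAi) whole worms it was slightly higher, at 1323.7 and 1332.2 against 1189.9 and 1166.9 in *unc*(RNAi) (0.17, SE 0.04). In *set1*(RNAi) Xins it was lower, at 40.0 and 29.6 against 69.4 and 82.2 in *unc*(RNAi) (-1.11, SE 0.23, lost without the second-listed control at -0.99, limma adjusted p = 0.0694).

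On scaffold v31.000668 the starts of SMED30024332 and SMED30035504 were covered in 4 tables, and the parts of the locus differed between cell types. X1 exceeded Xins from 58301 to 60500, with 58.7 and 60.6 in X1 against 22.8 and 18.9 in Xins (log2 change 1.48, SE 0.20), and was below Xins from 59901 to 61500, with 44.1 and 50.7 in X1 against 77.5 and 90.9 in Xins (-0.82, SE 0.16). Both calls were lost without the first-listed or the second-listed X1 library (limma adjusted p between 0.0957 and 0.126). The start of SMED30024332 was located at 59866. In *mll*(RNAi) X1 the region from 58901 to 61500 had 52.8 and 54.3 against 222.6 and 192.6 in *unc*(RNAi) (-1.93, SE 0.11), with enrichment of 1.58 and 7.90. In *mll*(RNAi) whole worms the locus was lower as well, at 586.1 and 507.8 against 883.0 and 877.4 in *unc*(RNAi) (-0.69, SE 0.05), and in *set1*(RNAi) whole worms it was higher, at 958.6 and 967.9 against 839.5 and 828.6 (0.21, SE 0.05). At this locus, as on v31.003246, the 2 knockdowns thus differed in direction in whole worms. Of the other named loci shared in 4 tables, those on v31.000042 and v31.000286, described below, also had opposite signs in whole worms. The 2 knockdowns moved alike at others. On v31.000753 (SMED30002558 and SMED30012653) both were lower, by -0.13 (SE 0.04) in *set1*(RNAi) and -0.22 (SE 0.05) in *mll*(RNAi). On v31.000284 both were higher, by 0.09 (SE 0.04) and 0.08 (SE 0.03). The *set1*(RNAi) call on v31.000753 and both on v31.000284 were lost with some single libraries left out. The tables have separate controls and different days of RNAi, and differences between the knockdowns were not tested.

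The locus on scaffold v31.000042 (SMED30008735 and SMED30013791) was lower in *mll*(RNAi) whole worms, at 506.7 and 487.6 against 960.2 and 989.4 in *unc*(RNAi) (log2 change -0.97, SE 0.05), and in *mll*(RNAi) X1, at 75.2 and 86.9 against 135.3 and 124.7 (-0.68, SE 0.12; 0.44 with centred libraries). In *set1*(RNAi) whole worms it had 851.0 and 884.2 against 813.8 and 824.7 in *unc*(RNAi), which did not pass the test (0.08, SE 0.05, limma adjusted p = 0.141). On scaffold v31.000286 (SMED30007869 and SMED30015117) the counts were 637.4 and 590.1 in *mll*(RNAi) whole worms against 789.2 and 773.9 in *unc*(RNAi) (-0.35, SE 0.05). In *set1*(RNAi) whole worms they were 1055.5 and 1015.9 against 923.8 and 945.1 in *unc*(RNAi) (0.15, SE 0.04), a call lost without the first-listed *set1*(RNAi) library (0.12, limma adjusted p = 0.0884) or the first-listed control (0.13, 0.0566).

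**Figure D4:**
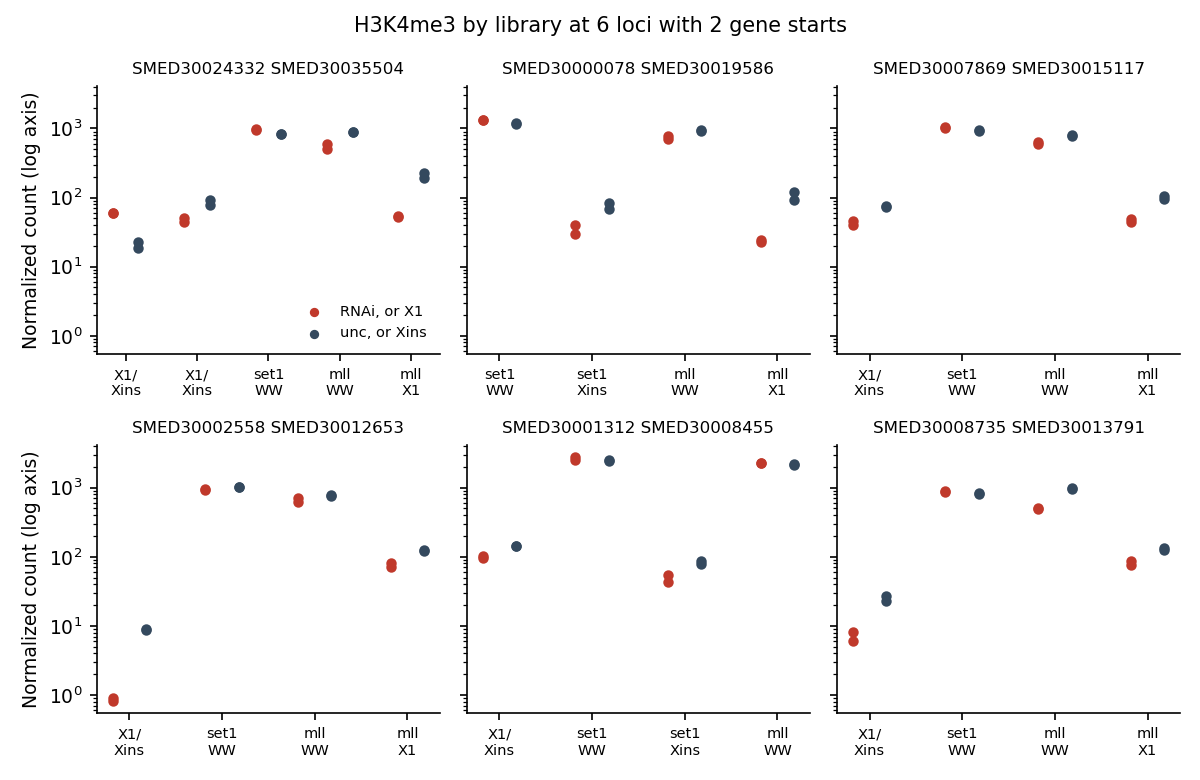
Normalized counts of H3K4me3 (log axis) in each library at 6 of the 9 loci that were shared regions in 4 tables, those with the larger smallest change, headed by their gene identifiers; red points are the 2 libraries of RNAi or of X1, dark points those of unc(RNAi) or of Xins. At SMED30024332 and SMED30035504 (top left, with 2 overlapping X1 over Xins regions) mll X1 had 52.8 and 54.3 against 222.6 and 192.6 in its controls, and set1 WW 958.6 and 967.9 against 839.5 and 828.6.

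The directions of the 2 knockdowns were set side by side over the 530 pairs of overlapping shared regions of the whole-worm tables. Both were lower in 141, both higher in 107, *set1*(RNAi) lower and *mll*(RNAi) higher in 97, and *set1*(RNAi) higher and *mll*(RNAi) lower in 185, so that 46.8% had the same direction. Over pairs of single-start regions this share was 48.0%, and over all listed regions 48.3%. Calls in both were made at 79 pairs, of which 25 were lower in both, 7 higher in both, 22 lower in *set1*(RNAi) and higher in *mll*(RNAi), and 25 the reverse. The same direction was thus found in 40.5% of the shared pairs called in both, and in 41.6% of the 1051 pairs called in both over all listed regions. A pair lower in both lay on scaffold v31.003307, where the regions from 2601 to 3600 and from 1901 to 3700 had 504.2 and 598.6 in *set1*(RNAi) against 714.4 and 713.6 in *unc*(RNAi) (log2 change -0.38, SE 0.05), and 649.4 and 619.1 in *mll*(RNAi) against 736.5 and 757.1 (-0.24, SE 0.05). A pair with opposite calls lay on scaffold v31.002369 (SMED30029809 and SMED30034109), with 582.4 and 616.5 in *set1*(RNAi) against 514.1 and 485.8 in *unc*(RNAi) (0.26, SE 0.05) and 467.2 and 445.0 in *mll*(RNAi) against 530.5 and 529.7 (-0.22, SE 0.06; not called with centred libraries, -0.12, limma adjusted p = 0.0754). The starts located on v31.003307 were those of SMED30023180 at 2111, SMED30013231 at 2479, SMED30033207 at 2485 and SMED30016982 at 3410.

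**Figure D5:**
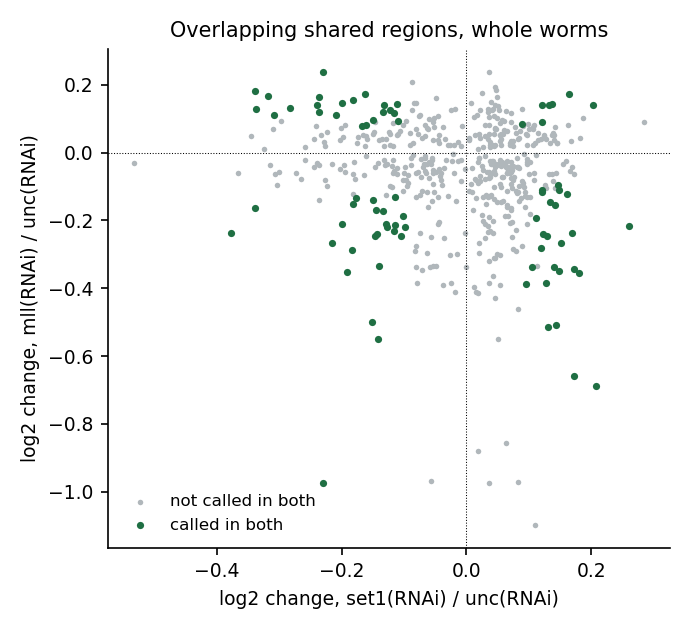
log2 change in set1(RNAi) (horizontal axis) and in mll(RNAi) (vertical axis) whole worms, each over its own unc(RNAi), at 530 pairs of overlapping shared regions; green points are the 79 pairs called in both tables. The 25 green pairs at lower right were higher in set1(RNAi) and lower in mll(RNAi), and the 7 at upper right were higher in both.

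A cluster of 4 starts on scaffold v31.007635 held overlapping regions with opposite changes. In *mll*(RNAi) whole worms the region from 7201 to 9300, over SMED30003141, SMED30004118, SMED30011296 and SMED30035848, had 926.0 and 938.2 against 798.6 and 781.9 in *unc*(RNAi) (log2 change 0.24, SE 0.04), the largest rise among the called shared regions of that table. The region from 8901 to 10000, which overlaps it at one end and covers only SMED30003141 and SMED30011296, had 226.3 and 216.0 against 448.7 and 422.1 (-0.97, SE 0.08). The starts of SMED30004118 and SMED30035848 were located at 7298 and 7453, at the end that was higher. In *mll*(RNAi) X1 the region from 8901 to 10400 was lower too, at 40.7 and 44.9 against 91.4 and 86.9 (-1.04, SE 0.14). In *set1*(RNAi) whole worms the region from 7401 to 9900, within 200 bases of all 4 starts, had 1211.0 and 1159.9 against 1362.4 and 1419.2 in *unc*(RNAi) (-0.23, SE 0.04), and the overlapping region from 9101 to 10200, outside the rule for named regions and given after its values were seen, had 531.1 and 530.6 against 507.1 and 528.0 (0.04, SE 0.05, limma adjusted p = 0.561).

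Within the same knockdown, whole worms and X1 cells mostly moved alike at shared regions. Both regions were lower in 20 of the 24 overlapping pairs of *set1*(RNAi), and in all 19 pairs called in both. Over all listed regions both were lower in 469 of 703 such pairs and in 413 of 466 called in both. With *mll*(RNAi) both were lower in 19 of 20 pairs, against 153 of 192 over all listed regions, where a further 16 were higher in both. Since every shared region listed in the X1 tables was lower, these counts say only how often the whole-worm region was lower too. Against Xins, *set1*(RNAi) whole worms gave 10 overlapping pairs, and the whole-worm region was higher in 7 of them and lower in 3, while over all listed regions it was higher in 74 of 166.

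The limit of 200 bases cut through a continuous range of distances. Just inside it, the region of 1000 bases that ends at 2200 on scaffold v31.005180, with its second start 200 bases away, had 1039.9 and 973.2 in *set1*(RNAi) and 1046.2 and 1036.2 in *unc*(RNAi). Just outside, the region from 83801 to 84900 on scaffold v31.000107, with its second start 201 bases away, had 677.6 and 692.1 in *set1*(RNAi) and 719.6 and 768.4 in *unc*(RNAi). In the *mll* table the region from 106301 to 108300 on scaffold v31.000595 (200 bases) had 1448.8 and 1475.8 in *mll*(RNAi) and 1399.8 and 1343.6 in *unc*(RNAi), and that from 185501 to 186700 on scaffold v31.000220 (201 bases) had 729.7 and 751.0 in *mll*(RNAi) and 724.9 and 708.3 in *unc*(RNAi).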

How the data were processed

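H3K4me3 ChIP-seq libraries and inputs (58 samples, 29 of each) were grouped by their labels. The tables held 28 H3K4me3 libraries. The authors' processing notes name CASAVA 1.8.2, Bowtie and MACS2, and the file names name diffReps; their settings, the genome build and whether the *Drosophila* cells that the protocol mentions served to scale libraries are not given in the sources used here. The authors deposited, per region, a normalized count of each library and its group mean (a signal scaled between libraries), and enrichment over input as a ratio. The deposited fold changes, p-values and adjusted p-values of the authors' comparisons were not used. No column was left unmapped. The last row of the X1 and Xins table was incomplete, at scaffold 1565, so later scaffolds were not analysed here for that comparison, and X1 was read as the first group from the order in the table's name.

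Regions were reduced to 1 per position and gene identifiers stripped of suffixes. log2(count + 1) was fitted with limma 3.58.1 (R 4.3.3), with a variance trend where a table had at least 50 regions, and Benjamini-Hochberg adjustment over each table at 0.05. In data simulated at the levels of each table, a change of 1 on the log2 scale was recovered at 93.5% of the changed regions in the X1 and Xins table (1378 regions) and at 100% in each RNAi table. A change of 0.3 was recovered at 100% in the whole-worm tables (8633 and 5169 regions), 12.0% in *set1* X1 (554), 8.82% in *mll* X1 (306) and 0% in X1 and Xins, in *set1* Xins (106) and in *mll* Xins (12). False calls reached 6.03% of calls in X1 and Xins (change of 1) and 6.98% in *mll* whole worms (0.3). The simulation had a common spread per table, no read-count noise, and rises and falls balanced at a minority of regions. Its rates therefore do not carry over to regions with few reads or to tables where nearly all regions fell. No count model was fitted, since 2 values share a cell and the worth of 1 read changed along each table; reads were recovered only to describe depth, within a tolerance of 0.0075. Gene starts were placed from the distances to region edges, and the distance and spacing classes were set with the values known. Comparisons of shared with single-start regions are descriptions, with no test. Regions were named by rule: in each table the 3 largest called falls and rises, the 2 with most identifiers and the 2 with the highest count; 6 loci in the most tables, ties going to the larger smallest absolute change; 3 loci called in opposite directions and 3 called lower in both whole-worm tables; and those at the distance limit. Loci past scaffold 1565 could not be counted in the comparison of X1 and Xins, which limited the choice by number of tables. The members and lists were chosen with earlier results of these data known. Alternatives were other pseudocounts, no trend, a count minimum of 20, centred libraries, libraries left out in turn, other limits and length classes.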

Additional observations from a re-analysis of the deposited data

Results flagged for a closer look

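Within a knockdown, 3 pairs of overlapping shared regions were called higher in whole worms and lower in sorted cells. In each, every whole-worm RNAi library stood above its controls and every sorted-cell RNAi library below. They were 2 of 5 shared pairs called in both for *set1*(RNAi) with Xins and 1 of 20 for *mll*(RNAi) with X1. Over all listed regions such calls were made at 22 of 96 and 4 of 149 pairs. For *set1*(RNAi) with X1 the counts were 0 of 19 and 52 of 466. Every shared region listed for RNAi in sorted cells was lower. These differences between tissues were not tested. On scaffold v31.003246 the log2 change was 0.17 in *set1*(RNAi) whole worms (43501 to 45200). In Xins (43601 to 45000) it was -1.11, a difference of 1.29, and -0.25 with centred libraries. On scaffold v31.000284 it was 0.09 in whole worms (120201 to 121900) and -0.75 in Xins (119901 to 120900), a difference of 0.83; the counts were 2737.1 and 2533.0 against 2440.8 and 2511.3 in *unc*(RNAi) in whole worms, and 55.0 and 43.7 against 77.9 and 88.1 in Xins. The whole-worm call there (limma adjusted p = 0.0494) was lost without the first-listed *set1*(RNAi) library (0.03, limma adjusted p = 0.535) or either control, and the Xins change turned to 0.12 with centred libraries. On scaffold v31.007635 it was 0.24 in *mll*(RNAi) whole worms (7201 to 9300) and -1.04 in X1 (8901 to 10400), a difference of 1.28, and these regions overlap only at their ends.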

How the results depend on the processing

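The 2 libraries of a group stand in 1 cell of a table with no replicate number. No paired analysis was possible because the library values cannot be matched to numbered replicates. Pseudocounts of 0.5 and 5, a count minimum of 20, fits without the variance trend and suffixes counted apart left each count of called shared regions within 1.5 times of its value. With any 1 library left out the called shared regions numbered 1 to 107 in X1 over Xins, 156 to 203 in *set1*(RNAi) whole worms, 31 to 31 in X1, 0 to 9 in Xins, 152 to 199 in *mll*(RNAi) whole worms and 33 to 33 in X1, and the median log2 change in *set1*(RNAi) Xins ran between -1.05 and -0.64. A group left with 1 library was taken to vary like the other.

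Centring the libraries gave median changes of -1.38 in X1 over Xins, -0.155 in *set1*(RNAi) X1, 0.035 in Xins, 0.058 in *mll*(RNAi) whole worms and 0.049 in X1, with 5, 0 and 7 shared regions called in *set1*(RNAi) X1, Xins and *mll*(RNAi) X1; the listed regions were picked for their change, so their median is no neutral scale. It turned the sign at 2 named regions of *set1*(RNAi) Xins (v31.001170, 0.11, and v31.000284, 0.12), at 1 of *set1*(RNAi) X1 (v31.012631, 0.016), at 1 of *mll*(RNAi) whole worms (v31.000340, 0.037) and at 6 of *mll*(RNAi) X1 (v31.000600, 0.30; v31.000109, 0.21; v31.001385, 0.39; v31.000286, 0.032; v31.000753, 0.42; v31.000042, 0.44).

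With starts counted up to 500 bases 448, 60 and 17 shared regions were called in *set1*(RNAi) whole worms, X1 and Xins, and the median change was 0.68 in X1 over Xins, -0.038 in *set1*(RNAi) whole worms and -0.89 in X1. With 3 or more identifiers 7 were called in X1 over Xins, 25 in *set1*(RNAi) whole worms, 23 in *mll*(RNAi) whole worms and 6 in X1, with median changes of 1.17 in X1 over Xins, -0.062 in *set1*(RNAi) whole worms and -0.87 in *mll*(RNAi) X1, and control enrichment differed from single-start regions by -3.43 in X1 over Xins, -0.80 in *set1* and -0.54 in *mll* whole worms. Over 2000 bases the median change was 1.27 in X1 over Xins, -0.12 in *set1*(RNAi) whole worms, -0.00073 in *mll*(RNAi) whole worms and -1.93 in X1 (1 region), and the enrichment difference 1.43 in *set1* whole worms, 1.45 in *set1* X1, -1.13 in *mll* whole worms and -0.66 in *mll* X1. Up to 1200 bases the change was -0.88 in *set1*(RNAi) X1, and the enrichment difference 0.28 in *set1* whole worms and -0.69 in *mll* X1. The cause of these shifts was not tested. In X1 over Xins 106 shared regions were called without the first-listed Xins library, the shallowest of that comparison with a median of 8 reads.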
